A study of Homo sapiens with 6 samples.

Results

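The genes described here are 55 genes of the lysosome and of autophagy: the MiT family transcription factors TFEB and TFE3, membrane proteins, acid hydrolases and proton pump subunits of the lysosome, and the machinery that builds autophagosomes. They were taken from a fixed list of symbols, chosen with earlier results of these data known. Each was measured by a probe set that names exactly 1 gene, and all 55 were found among the 18417 genes tested. NEU1 had more than 1 such probe set, of which the brightest on average was used. A375, an established human melanoma cell line, was grown for 24 h after seeding and then kept for 24 h in 10 µM vemurafenib (3 arrays) or in 0.1% DMSO as vehicle (3 arrays). Vemurafenib is a kinase inhibitor used to treat melanoma that shuts down ERK pathway signalling in cells whose mutant kinase it binds. Per the series' design text, each group's replicates came from separate cell stocks handled on separate days, with a vehicle and a drug dish paired within each stock and day. All 6 samples are 1 cell line in monolayer culture, with no other cell types, no second dose and no second time point.

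Lysosomes are acidic organelles in which proteases, glycosidases and lipases break down material delivered by endocytosis and autophagy. The vacuolar ATPase pumps protons into the lumen, and in autophagy a growing membrane, decorated with ATG8 proteins such as LC3, encloses cytoplasm and then fuses with lysosomes. TFEB, TFE3 and MITF, which belong to 1 family, bind an E-box called the CLEAR element in promoters of lysosomal genes. TFEB and TFE3 are controlled largely by where the protein sits in the cell, which RNA levels do not show. In pigment cells, melanosomes are organelles related to lysosomes.

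Array medians over all 33297 probe sets lay between 7.69 and 7.73. Values are log2 levels per probe set, from 2.67 to 14.56 over the table. Such values are relative within an array, so fewer cells and less RNA per cell cannot be told apart from them, and their precision is limited by the number of arrays. The treatment was visible in 6 of 6 ERK output genes, which all fell, with log2 changes of -2.49 (CCND1) to -4.21 (DUSP6). Of the melanoma markers, SOX10, MITF, S100B, S100A1 and CSPG4 were measured above 6.87, the level below which the dimmest 25% of genes lie. PMEL, TYR and MLANA had group means in that dim range and did not pass, though TYR passed as lower in 3 of 13 alternatives. SOX10, MITF, S100B and S100A1 rose and CSPG4 fell. Summed levels of these 8 markers were 13.145 to 13.235 on vemurafenib arrays and 12.772 to 12.801 on vehicle arrays. Macrophage markers, listed because macrophages are rich in lysosomes, had 0 of 11 higher and 3 lower (27.3%, against 22.2% of all genes) with vemurafenib. The lower ones were LYZ, CD14 and FCER1G. FCER1G did not pass without vemurafenib replicate 1 (limma adjusted p 0.0568) or vehicle replicate 3 (0.0553). CD163 passed as lower in 2 of 13 alternatives and ITGAX as higher in 1 of 14. The summed level of the 11 was 10.77 to 10.86 on vemurafenib arrays and 11.15 to 11.27 on vehicle arrays (log2). Of the 11, 7 were in the dim range in both groups, CD14, FCER1G and PTPRC among them. Of 5 fibroblast markers, LUM, DCN and PDGFRB rose (60.0%, against 23.2% of all genes), and PDGFRA and THY1 did not pass. PDGFRA passed as lower in 5 of 13 alternatives (lowest limma adjusted p 0.0217) and THY1 in 1 of 14. DCN rose from a vehicle mean of 5.46, in the dim range. Summed levels of the 5 were 10.65 to 10.87 on vemurafenib arrays and 9.73 to 9.98 on vehicle arrays. Of 4 keratinocyte markers 0 passed in limma, at summed levels of 9.69 to 9.96 on vemurafenib arrays and 9.65 to 9.84 on vehicle arrays. KRT14, the only one of them with an unadjusted p under 0.05, changed by 0.27 (limma adjusted p 0.0501) and passed as higher in 7 of 15 alternatives. KRT1 passed as lower in 1 of 13. The part of these markers in the results below was not tested.

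With vemurafenib, 34 of the 55 lysosome and autophagy genes rose, 4 fell and 17 did not pass the threshold. The rises spanned the protein-digesting, sugar-trimming and lipid-degrading enzymes, and most were modest. They ran from a log2 change of 0.24 (MAP1LC3B) to 1.59 (CTSK), 18 of the 34 were under 1.5-fold, and 5 reached at least 2-fold (CTSK, CTSO, SMPD1, NEU1 and CD68), as did 3.07% of all genes. The 4 genes that fell were GLA, CTSC, ATG16L1 and CTSZ, with log2 changes of -0.69, -0.47, -0.36 and -0.30. Each change is vemurafenib minus vehicle, tested with limma over all 18417 genes at a Benjamini-Hochberg adjusted p threshold of 0.05. By that rule 23.2% of all genes rose and 22.2% fell (45.5% together), so the share that rose among the 55 (61.8%) stood well above the background and the share that fell (7.27%) well below it. That background includes dim genes, whereas 50 of the 55 had a vehicle mean above the median of all genes tested. Without the dimmest 50% of genes, 2991 genes rose and 2970 fell, which are larger shares of the genes left in that fit. So 23.2% and 22.2% are low as a background for bright genes. Among them were 33 and 3 of the 55, of which not all were bright enough for that fit. The split over all genes was 4281 higher and 4090 lower. It was 3682 higher and 5630 lower once array medians over the genes tested had been made equal. That centring lowered every change by the same amount and gave 33 higher and 6 lower among the 55 genes. The median change was 0.30 over the 55 genes and -0.05 over all genes tested.

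**Figure D1:**
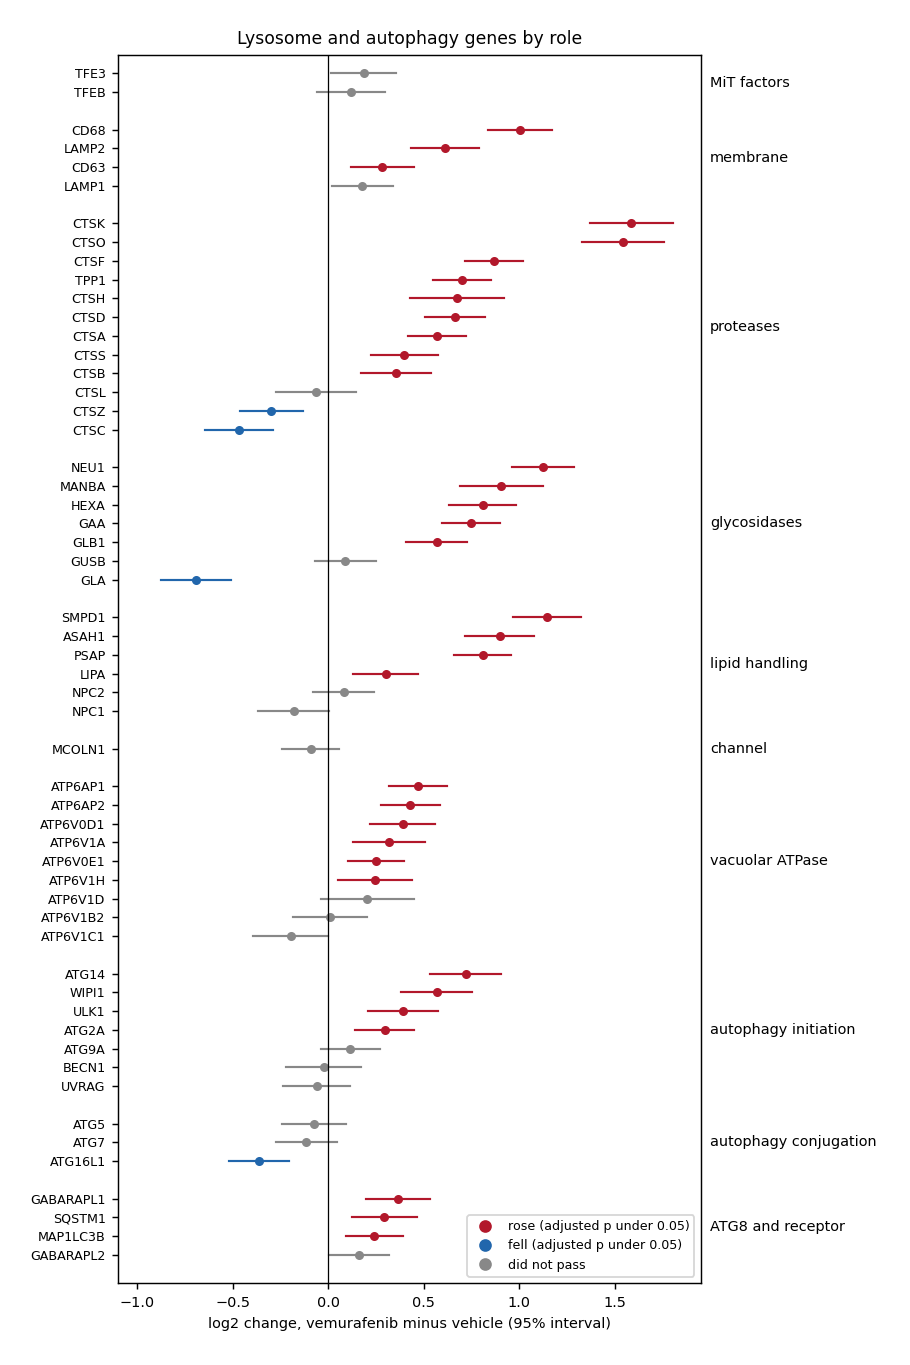
Log2 change (horizontal axis, vemurafenib minus vehicle) of each of the 55 genes, grouped by role, with its 95% interval from limma. Red points rose, blue points fell and grey points did not pass an adjusted p of 0.05; the enzymes reach further to the right than the pump and autophagy genes.

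All 3 vemurafenib arrays lay above all 3 vehicle arrays for 38 of the 55 genes, and below them for 6. Over all genes tested these shares were 26.9% above and 28.5% below. For each of the 38 genes that passed the test the groups did not overlap. Another 6 genes lay apart without passing: LAMP1, GUSB, ATG9A and GABARAPL2 above, NPC1 and MCOLN1 below.

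Neither TFEB nor TFE3, the family members in the list, passed the test. TFEB read 7.71, 7.65 and 7.82 on the vemurafenib arrays, against 7.58, 7.72 and 7.52 on the vehicle arrays. The groups overlapped, with a log2 change of 0.12 (SE 0.08, limma adjusted p 0.249). For TFE3 the values were 10.87, 10.75 and 10.91 with vemurafenib, against 10.75, 10.64 and 10.58 with vehicle. Its lowest vemurafenib array lay just below the highest vehicle array, at a change of 0.19 (SE 0.08, 95% interval 0.01 to 0.36, limma adjusted p 0.0726). TFE3 passed as higher in 4 of 15 alternatives (limma adjusted p 0.0231 to 0.213 over the 15). The 4 were renewed quantile normalization (0.0231), other eBayes settings (0.0349), omission of the dimmest 50% of genes (0.0379) and of vemurafenib replicate 2 (0.0473). Without that array the TFE3 change was 0.23. MITF, the family member that directs pigment cell genes, rose 1.68-fold, with 10.93, 10.93 and 10.88 on vemurafenib arrays and 10.15, 10.22 and 10.13 on vehicle arrays (limma adjusted p 4.26e-06). TFEC was dim in both groups, with means of 4.95 with vemurafenib and 4.77 with vehicle, so the arrays do not show whether it is expressed. It did not pass (limma adjusted p 0.222), except without vehicle replicate 2 (0.0369).

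RefSeq promoter windows, from 250 bases before to 50 bases after a gene's start (build GRCh38.p14), were given for 40 of the 55 genes, and for genes with several starts the first listed window was read. The motif searched was the E-box core CACGTG, then TCACGTGA, which contains it, then the full CLEAR element, which is TCACGTGA with a G before it and a C after it. Each is its own reverse complement, so both strands are covered. CACGTG stood in 10 of 40 windows (25%), against 7.43% of all 27305 genes' windows in the table. The share was 8.88% of the 14239 windows of genes tested and 9.02% of the 3438 windows of genes that rose. TCACGTGA was in 5 of 40 (12.5%, against 1.04% of all windows), and the full CLEAR element in 2 of 40 (5.00%, against 0.381%). Among the windows of genes tested the shares were 1.475% for TCACGTGA and 0.576% for the full element. Among the windows of genes that rose they were 2.18% and 1.02%. These matches describe letters and do not show binding. The 100 bases before the start of the 5 genes with TCACGTGA are printed below, because 3 of these genes rose and the other two did not pass; capitals mark each complete copy of that motif.
GAA (chr17:80101481-80101580, plus strand): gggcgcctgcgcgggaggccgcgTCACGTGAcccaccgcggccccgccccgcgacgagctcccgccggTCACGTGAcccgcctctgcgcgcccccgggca
CTSA (chr20:45891235-45891334, plus strand): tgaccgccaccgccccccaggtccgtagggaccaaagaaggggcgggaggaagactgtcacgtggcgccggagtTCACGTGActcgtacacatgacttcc
ATP6V0D1 (chr16:67481158-67481257, minus strand): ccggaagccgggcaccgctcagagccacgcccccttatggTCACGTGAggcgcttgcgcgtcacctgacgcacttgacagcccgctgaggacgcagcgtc
LAMP1 (chr13:113297139-113297238, plus strand): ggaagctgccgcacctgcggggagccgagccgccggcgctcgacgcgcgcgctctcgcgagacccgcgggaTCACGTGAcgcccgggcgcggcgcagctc
MCOLN1 (chr19:7522524-7522623, plus strand): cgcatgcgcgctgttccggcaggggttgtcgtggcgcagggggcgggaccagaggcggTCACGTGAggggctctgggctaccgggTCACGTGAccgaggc

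GAA and MCOLN1 each carry 2 copies of TCACGTGA in these stretches, and both copies of GAA and 1 of MCOLN1 extend to the full CLEAR element. GAA rose and MCOLN1 did not pass, so the same letters stood before a gene that rose and before one without a call. LAMP1 has a further copy that straddles its start and is not printed. CACGTG without the flanking letters was found in the windows of ATG14, CD63, CTSD, CTSF and NEU1, which all rose. With or without flanking letters, CACGTG stood in 8 of 22 windows of genes that rose and in 2 of 14 of genes that did not pass. It stood in 0 of 4 windows of genes that fell, which are too few to compare.

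Among membrane glycoproteins of the lysosome 3 of 4 rose and 0 fell. CD68, a heavily glycosylated protein of late endosomes and lysosomes that is best known from macrophages, read 12.33, 12.40 and 12.47 on the vemurafenib arrays, against 11.37, 11.49 and 11.32 on the vehicle arrays. Every vemurafenib array was thus higher by more than the whole spread of either group, and the change was 1.01 (SE 0.08, 2.01-fold, limma adjusted p 9.70e-07). LAMP2, which lines the lysosomal membrane and takes part in its fusion with autophagosomes, read 11.11, 11.27 and 11.04 with vemurafenib, against 10.52, 10.45 and 10.60 with vehicle, a 1.53-fold rise. CD63, a tetraspanin of late endosomes and of melanosomes, rose 1.22-fold. LAMP1, the other main glycoprotein of that membrane, read 11.85, 11.80 and 11.75 with vemurafenib, against 11.66, 11.67 and 11.53 with vehicle. The LAMP1 groups did not overlap, but the change of 0.18 did not pass (SE 0.07, limma adjusted p 0.0665).

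Of the 12 proteases 9 rose and 2 fell, among them 8 and 2 of the 11 cathepsin genes, with a median change of 0.57 over the cathepsins. CTSK, a cysteine protease best known for collagen breakdown by osteoclasts, read 10.66, 10.69 and 10.77 on vemurafenib arrays, against 9.31, 8.91 and 9.14 on vehicle arrays. It was 3.00-fold higher (log2 change 1.59, SE 0.10, limma adjusted p 2.14e-07), with an SD of 0.06 over the vemurafenib arrays and 0.20 over the vehicle arrays. CTSO, another cysteine protease, read 7.49, 7.74 and 7.40 with vemurafenib, against 5.97, 6.11 and 5.91 with vehicle. The CTSO change of 1.54 (SE 0.10) starts from a vehicle level inside the dim range, so the 2.91-fold is a ratio of array values that background limits.

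CTSF, a cysteine protease, read 9.97, 9.99 and 9.89 with vemurafenib, against 9.12, 9.09 and 9.05 with vehicle, a 1.82-fold rise. CTSD, the main aspartic protease of lysosomes, read 12.68, 12.71 and 12.60 with vemurafenib, against 12.01, 12.06 and 11.93 with vehicle, and rose 1.58-fold. In both genes the arrays of each group lay close together and the groups stood far apart. CTSH, an aminopeptidase, rose 1.60-fold but was the least even of the proteases, at 9.32, 9.54 and 9.04 with vemurafenib and 8.71, 8.59 and 8.58 with vehicle. TPP1, which removes tripeptides from protein ends, rose 1.63-fold, CTSA, a carboxypeptidase, 1.48-fold, and CTSB, an abundant cysteine protease, 1.28-fold. CTSS, known from antigen-presenting cells, passed at 0.40 (limma adjusted p 0.00171), but its means of 5.92 with vemurafenib and 5.52 with vehicle were both in the dim range, and the vehicle mean lay below 5.55, the vehicle median of 361 olfactory receptor genes that melanoma cells hardly express.

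The exceptions among the proteases were CTSC and CTSZ. CTSC, a dipeptidyl peptidase that activates serine proteases of immune cells, read 12.20, 12.10 and 11.98 on vemurafenib arrays, against 12.62, 12.47 and 12.59 on vehicle arrays. All vemurafenib arrays were lower, by 1.38-fold on average (log2 change -0.47, SE 0.08, limma adjusted p 0.000571). CTSZ, a carboxypeptidase, was 1.23-fold lower, with 10.62, 10.67 and 10.83 with vemurafenib and 11.01, 11.02 and 10.98 with vehicle. CTSL, a cysteine protease of the same family as CTSK and CTSS, overlapped between groups, at 9.91, 10.04 and 10.16 with vemurafenib and 10.25, 9.94 and 10.12 with vehicle (limma adjusted p 0.602).

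**Figure D2:**
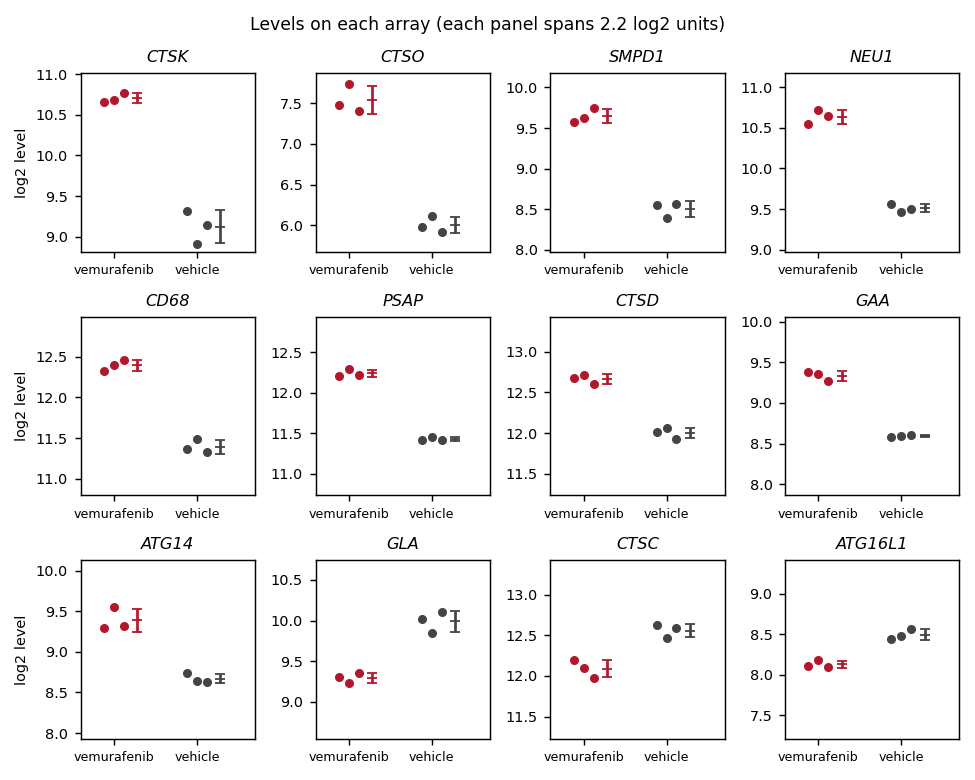
Log2 level of 12 genes on each array, vemurafenib (red) left of vehicle (grey), with the mean and SD of 3 arrays at the right of each group; every panel spans the same log2 distance. In each panel the 3 vemurafenib arrays lie wholly above the vehicle arrays, or wholly below them for GLA, CTSC and ATG16L1.

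Glycosidases, which trim sugars from glycoproteins, glycolipids and glycogen, gave 5 rises and 1 fall among 7 genes. These were 71.4% and 14.3%, against 23.2% and 22.2% of all genes. NEU1, a sialidase, read 10.55, 10.72 and 10.64 with vemurafenib, against 9.57, 9.47 and 9.50 with vehicle, and was 2.18-fold higher (log2 change 1.12, SE 0.07, limma adjusted p 3.34e-07). Its other probe sets, a pair with identical values, gave a change of 1.07. NEU1, GLB1 (beta-galactosidase) and CTSA are known to sit together in 1 enzyme complex in lysosomes, and all of them rose. GLB1 read 11.19, 11.15 and 11.09 with vemurafenib, against 10.56, 10.51 and 10.66 with vehicle, a rise of 1.48-fold. CTSA changed by the same log2 amount, 0.57.

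MANBA, beta-mannosidase, rose 1.87-fold and HEXA, the alpha subunit of beta-hexosaminidase, which degrades gangliosides, 1.75-fold. HEXA read 10.73, 10.73 and 10.59 with vemurafenib, against 9.99, 9.84 and 9.79 with vehicle. GAA, the acid alpha-glucosidase that breaks down glycogen, read 9.38, 9.36 and 9.27 with vemurafenib, against 8.58, 8.59 and 8.60 with vehicle. The GAA vehicle arrays differed by hundredths of a log2 unit, and the change was 0.75 (SE 0.07, 1.68-fold). GLA, the alpha-galactosidase that degrades globotriaosylceramide, moved the other way, with 9.31, 9.23 and 9.35 on vemurafenib arrays and 10.02, 9.85 and 10.10 on vehicle arrays. All 3 GLA values with vemurafenib were lower, by 1.62-fold on average (limma adjusted p 3.38e-05), the largest fall among the 55 genes. GUSB, beta-glucuronidase, read 9.93, 10.03 and 9.93 with vemurafenib, against 9.91, 9.80 and 9.91 with vehicle, and did not pass at 0.09 (limma adjusted p 0.337). GUSB has several pseudogene copies that the array also targets, so its probe set and theirs may share signal.

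Of 6 genes of lysosomal lipid handling 4 rose (66.7%, against 23.2% of all genes) and 0 fell (against 22.2%). SMPD1, the acid sphingomyelinase that makes ceramide, read 9.57, 9.62 and 9.75 with vemurafenib, against 8.55, 8.39 and 8.56 with vehicle, which was 2.21-fold higher (limma adjusted p 5.20e-07). ASAH1, the acid ceramidase that cleaves ceramide, read 11.00, 11.14 and 10.87 with vemurafenib, against 10.16, 10.08 and 10.09 with vehicle, a 1.86-fold rise. PSAP encodes the precursor of the saposins, which present sphingolipids to these enzymes, and was 1.75-fold higher, at 12.21, 12.29 and 12.22 with vemurafenib and 11.42, 11.46 and 11.42 with vehicle. In all of these genes of sphingolipid breakdown the vemurafenib arrays lay above every vehicle array. LIPA, the acid lipase that frees cholesterol from its esters, rose 1.23-fold. NPC1 and NPC2, which pass cholesterol out of the lysosome, did not pass. NPC1 read 10.32, 10.28 and 10.23 with vemurafenib, against 10.41, 10.35 and 10.62 with vehicle, a change of -0.18 (SE 0.08, limma adjusted p 0.0981) that passed without vehicle replicate 2 (-0.24, limma adjusted p 0.0464) and after centring (0.0329), within a range of 0.0329 to 0.359 over the alternatives. NPC2 stood at 11.65 ± 0.06 with vemurafenib and 11.57 ± 0.07 with vehicle (SD, n = 3). MCOLN1, the calcium channel that signals from lysosomes, was at 10.64 ± 0.03 with vemurafenib and 10.73 ± 0.04 with vehicle (SD, n = 3), a change of -0.09 (95% interval -0.24 to 0.06).

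Of the 9 proton pump genes 6 rose (66.7%, against 23.2% of all genes) and 0 fell (against 22.2%), and the largest rise was 1.38-fold. Their median change was 0.25, beside 0.67 over the 22 hydrolase genes among the 55. ATP6AP1 and ATP6AP2, accessory proteins of the pump, rose most, by 0.47 and 0.43. ATP6AP1 read 12.12, 12.05 and 12.08 on vemurafenib arrays, against 11.65, 11.64 and 11.56 on vehicle arrays. ATP6V0D1 and ATP6V0E1, subunits of the V0 part that spans the membrane, rose 1.31-fold and 1.19-fold. For ATP6V0D1 the values were 12.15, 12.12 and 12.23 with vemurafenib, against 11.88, 11.66 and 11.79 with vehicle. In the V1 part, which splits ATP, the catalytic subunit gene ATP6V1A rose 1.25-fold and ATP6V1H 1.18-fold. ATP6V1A no longer passed without vemurafenib replicate 1 (limma adjusted p 0.0504, range over the alternatives 0.000966 to 0.0504). The rise of ATP6V1H (0.24, SE 0.09, limma adjusted p 0.0408) ended after centring (0.18, limma adjusted p 0.0975), with the replicate number as a fixed block (0.0674) or a random block (0.0523), and without vemurafenib replicate 1 (0.130), vemurafenib replicate 2 (0.111) or vehicle replicate 2 (0.130), within a range of 0.0173 to 0.130.

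ATP6V1B2 stood at 11.57 ± 0.16 with vemurafenib and 11.56 ± 0.04 with vehicle (SD, n = 3), and ATP6V1D and ATP6V1C1 also did not pass. The ATP6V1C1 change of -0.20 (limma adjusted p 0.0896) passed as lower with array weights (0.00650), after centring (0.0339) and without vemurafenib replicate 2 (0.0291) or vehicle replicate 2 (0.0473), within a range of 0.00650 to 0.269. Among 14 measured subunit genes outside the list, 5 rose (35.7%, against 23.2% of all genes) and 3 fell (21.4%, against 22.2%), and ATP6V0A4 and ATP6V1G2 were not analysed here. TCIRG1, which encodes an a subunit of the V0 part, rose by 0.59, ATP6V0E2 by 0.45 and ATP6V0A1, another a subunit, by 0.33. ATP6V1C2, dim with vemurafenib, ATP6V0A2 and ATP6V0B changed by -0.27, -0.26 and -0.23. ATP6V0A2 did not pass without vemurafenib replicate 1 (limma adjusted p 0.129), vemurafenib replicate 2 (0.0595), vehicle replicate 1 (0.129) or vehicle replicate 3 (0.117), nor with the replicate block (0.0557). ATP6V0B did not pass without the same arrays (limma adjusted p 0.108, 0.0809, 0.0988 and 0.0536 in that order), nor with the replicate block (0.0568) or renewed quantile normalization (0.0729). Over all 23 measured pump genes 5 of 9 V0 genes, 4 of 12 V1 genes and both accessory genes rose, while 2, 1 and 0 fell. Of all genes tested, 23.2% rose and 22.2% fell. Each part holds few genes, and a difference between the parts was not tested.

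**Figure D3:**
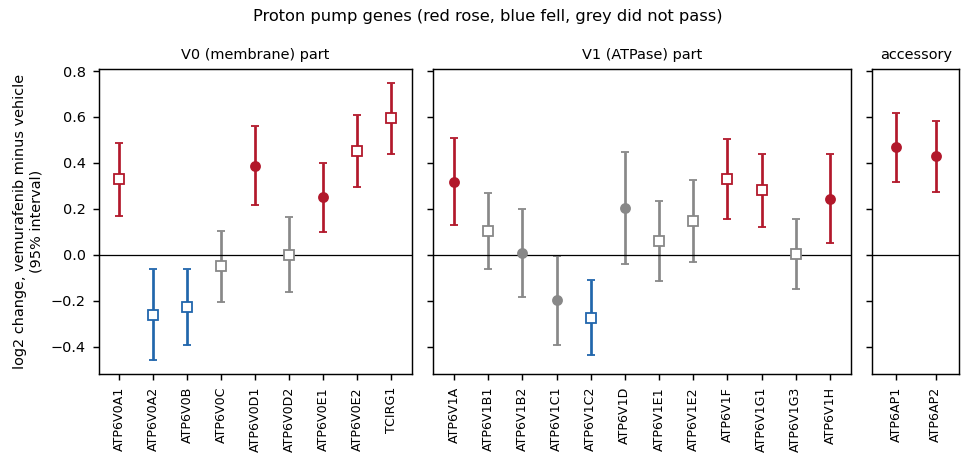
Log2 change (vertical axis, vemurafenib minus vehicle, with 95% interval) of the 23 measured genes of the vacuolar ATPase, split into the V0 part, the V1 part and the accessory proteins. Filled circles are among the 55 genes and open squares are the other subunits; red rose, blue fell and grey did not pass, and no change exceeds 0.6.

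Of the 14 autophagy genes 7 rose and 1 fell, with a median change of 0.20. Genes of initiation came first: ATG14, the subunit that directs the class III lipid kinase to autophagosome formation, read 9.29, 9.56 and 9.32 with vemurafenib, against 8.74, 8.64 and 8.63 with vehicle. It was the largest autophagy rise of the 55 genes, at 0.72 (SE 0.08, 1.65-fold, limma adjusted p 3.29e-05). WIPI1, which binds the lipid that this kinase makes, rose 1.48-fold, at 10.44, 10.52 and 10.73 with vemurafenib and 10.01, 10.02 and 9.97 with vehicle. ULK1, the kinase that starts autophagy, rose 1.31-fold, with 9.68, 9.44 and 9.67 with vemurafenib and 9.17, 9.19 and 9.25 with vehicle. ATG2A, a lipid transfer protein, rose 1.23-fold. BECN1, the partner of ATG14 in the lipid kinase complex, and UVRAG, which takes the place of ATG14 in another form of that complex, overlapped between groups, with changes of -0.02 and -0.06 (limma adjusted p 0.848 and 0.555). ATG9A, a lipid scramblase, did not pass at 0.12.

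Of the 3 conjugation genes among the 55, 1 fell and the others did not pass. ATG16L1, which places the conjugation machinery on the membrane, read 8.12, 8.18 and 8.10 with vemurafenib, against 8.44, 8.48 and 8.57 with vehicle, a fall of 1.28-fold (limma adjusted p 0.00145). ATG5 and ATG7 had log2 changes of -0.07 and -0.12. The conjugation genes outside the 55 are described with the other autophagy genes. Of the 3 ATG8 genes, GABARAPL1 rose 1.29-fold, with 10.52, 10.60 and 10.69 with vemurafenib and 10.18, 10.22 and 10.33 with vehicle. MAP1LC3B rose 1.18-fold, from a probe set that read 7.84, 7.80 and 7.74 with vemurafenib, against 7.55, 7.55 and 7.56 with vehicle. Its call ended without vemurafenib replicate 1 (limma adjusted p 0.0595, range over the alternatives 0.00201 to 0.0595), and a second probe set, shared with the near-identical gene MAP1LC3B2, overlapped between groups. GABARAPL2 did not pass at 0.16 (limma adjusted p 0.0881). SQSTM1, which encodes the cargo receptor p62, itself degraded by autophagy, rose 1.23-fold, at 12.60, 12.73 and 12.53 with vemurafenib and 12.35, 12.25 and 12.38 with vehicle.

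Other genes of the pathway, taken as lists of known function, also rose more often than they fell. These lists were chosen with earlier results of these data known, so they are not independent support. Of 128 measured genes in 8 such lists 78 rose (60.9%, against the background of 23.2%) and 15 fell (11.7%, against 22.2%). Of the 128, 107 had a vehicle mean above the median of all genes tested. Among 23 other lysosomal hydrolases and activators 17 rose and 3 fell. MAN2B2, an alpha-mannosidase, rose by 0.85, GALC, the galactosylceramidase, by 0.78 and DNASE2, the acid DNase, by 0.74. The sulfatase genes ARSG and ARSB changed by -0.39 and -0.36, and the protease gene CTSV, dim in both groups, by -0.25. CTSV did not pass without vemurafenib replicate 2 (limma adjusted p 0.101), vemurafenib replicate 3 (0.0888), vehicle replicate 1 (0.0865) or vehicle replicate 3 (0.106). It also missed the threshold after renewed quantile normalization (limma adjusted p 0.0509). Other genes of this list were not analysed here.

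Of 20 other membrane proteins, channels and transporters 13 rose (65.0%, against 23.2% of all genes) and 1 fell (5.0%, against 22.2%). SLC17A5, which exports sialic acid from lysosomes, was 2.46-fold higher, with 10.26, 10.42 and 10.30 on vemurafenib arrays and 9.06, 8.92 and 9.09 on vehicle arrays. It thus rose together with the sialidase gene NEU1. MCOLN3, a relative of MCOLN1, rose by 0.62 and TMEM175, a potassium and proton channel of lysosomes, by 0.57. MCOLN2 changed by -0.26 (limma adjusted p 0.0288) and did not pass without vemurafenib replicate 2 (0.106), vemurafenib replicate 3 (0.0523), vehicle replicate 1 (0.105) or vehicle replicate 3 (0.0987). Of 9 genes that tag enzymes with mannose 6-phosphate or sort them to lysosomes 4 rose (44.4%) and 1 fell (11.1%). Over all genes these shares were 23.2% and 22.2%. The rises were led by GNPTG (0.63) and GNPTAB (0.51), subunits of the tagging enzyme, and the receptor gene IGF2R (0.44). AP1M1, an adaptor subunit, changed by -0.32. SORT1 was not analysed here.

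Genes that fuse lysosomes with autophagosomes or endosomes gave 10 rises (83.3%, against 23.2% of all genes) and 0 falls (against 22.2%) among 12. Their median change was 0.52, and VPS16 was not analysed here. VPS39, a subunit of the HOPS tethering complex, read 11.65, 11.63 and 11.55 with vemurafenib, against 10.62, 10.57 and 10.57 with vehicle, a 2.03-fold rise (limma adjusted p 4.01e-07). VPS41, of the same complex, and VAMP8, a SNARE protein of the fusion step, rose 1.91-fold and 1.92-fold. RAB7A, the GTPase that recruits HOPS, overlapped between groups at 13.32 ± 0.05 with vemurafenib and 13.37 ± 0.05 with vehicle (SD, n = 3).

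Among 31 other autophagy genes 16 rose (51.6%, against 23.2% of all genes) and 6 fell (19.4%, against 22.2%). MAP1LC3C, an ATG8 gene, was 2.42-fold higher, with 8.72, 8.56 and 8.35 on vemurafenib arrays and 7.30, 7.45 and 7.07 on vehicle arrays. ATG10, which joins ATG12 to ATG5, rose by 0.89 and the cargo receptor gene OPTN by 0.76. ATG12 itself fell 1.64-fold, at 9.48, 9.50 and 9.44 with vemurafenib and 10.20, 10.04 and 10.32 with vehicle. ATG101, a partner of ULK1, and BNIP3, a mitophagy receptor, had log2 changes of -0.64 and -0.60. Of 17 measured genes of mTORC1, the kinase complex that restrains autophagy, and its nutrient sensors at the lysosome, 12 rose and 1 fell. These were 70.6% and 5.88%, against 23.2% and 22.2% of all genes, and LAMTOR1 was not analysed here. RRAGB, a Rag GTPase gene, rose by 0.86, FNIP1, a partner of folliculin, by 0.61 and TSC2, an inhibitor of mTORC1, by 0.53, whereas RHEB, the GTPase that activates mTORC1, changed by -0.34.

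**Figure D4:**
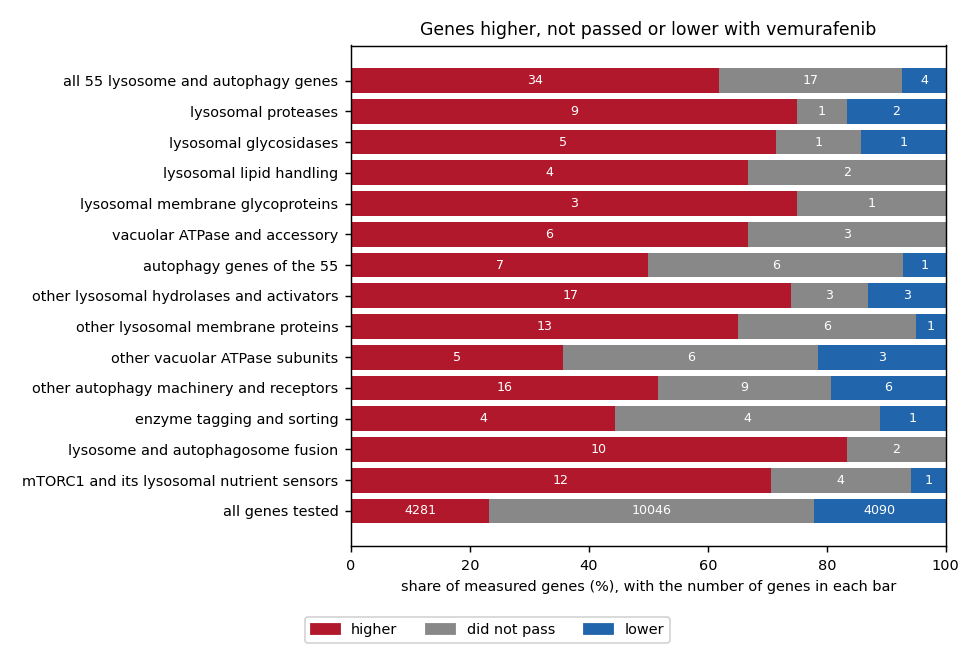
Share of the measured genes of each list (horizontal axis, percent) that were higher (red), did not pass (grey) or were lower (blue) with vemurafenib, with the number of genes printed in each bar. All genes tested, at the bottom, give the background of 4281 higher and 4090 lower.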

How the data were processed

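RNA of 6 A375 cultures was hybridised to single-colour Affymetrix arrays. The deposited log2 levels per probe set come from RMA and Partek (versions not stated), per the submitters' processing notes. Quantile normalization, which usually follows background subtraction in RMA, hides changes of total RNA, and folds from RMA values can be compressed. Build and summarization level: not given in the sources used here.

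The table held 33297 probe sets and 0 columns of other samples. Per the platform annotation of 2016, 19460 probe sets named 1 gene, 1754 several and 12083 none here. By Entrez identifier 19429 matched a RefSeq gene table and 0 symbols needed an update. Where a gene had several probe sets, the one brightest on average was used, with no filter on dim genes, leaving 18417 genes.

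Tests used limma 3.58.1 (R 4.3.3; lmFit, eBayes, 2-sided, no covariate, Benjamini-Hochberg over all genes, threshold 0.05), and intervals are at 95%. Folds are back-transformed absolute log2 changes. A level in the range of the dimmest 25% of genes is called dim.

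Any of the 55 genes could be named, with up to 3 rises and 3 falls of each further list, every gene of a list of 3 or fewer, ERK output genes and markers; RAB7A, which was tested, and genes not analysed here, such as SORT1, were named in addition. The genes and lists were chosen with earlier results of these data known. Alternatives tried were a block for the replicate number (fixed or random), other normalizations, filters on dim genes, the mean of probe sets, other eBayes settings, array weights, a stricter threshold and omission of each array, with the spread pooled over both groups. The script was tested on simulated data. Tables and figures were made in Python 3.11.15 (matplotlib 3.10.9, pandas 2.3.3, numpy 2.4.6); statmod 1.5.0 served the random block.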

Additional observations from a re-analysis of the deposited data

Results flagged for a closer look

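Besides the probe set used for GUSB, 7 probe sets list GUSB together with its pseudogene copies, and they were left out of the comparisons because they name several genes. All 3 vemurafenib arrays lay above all 3 vehicle arrays in each of them, a signal in data that no comparison used. The differences, vemurafenib minus vehicle on the log2 scale, were 0.54, 0.53, 0.48, 0.44, 0.44, 0.44 and 0.43 (probe sets 8105937, 8112491, 8124469, 8074925, 8105995, 8112558 and 8111455), against 0.09 for the probe set that names GUSB alone. These sets share target sequence, so they are not independent, and the signal cannot be assigned to GUSB or to a copy from these values.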

How the results depend on the processing

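Over 16 alternatives, 30 to 37 of the 55 genes rose and 3 to 6 fell, and 35 of the 38 calls (31 rises and 4 falls) were kept wherever the gene was tested, apart from the stricter threshold of 0.01. The other calls lost were those of ATP6V1A, ATP6V1H and MAP1LC3B. At 0.01, 4 of the 38 calls did not pass. Over the 6 fits without 1 array, 31 to 34 rose and 4 to 6 fell. LAMP1 passed in 5 alternatives, among them renewed quantile normalization (limma adjusted p 0.0111), and GABARAPL2 in 3 (0.0114 there), within ranges of 0.0111 to 0.226 and 0.0114 to 0.228. Signs turned only for genes that did not pass in any setting: ATP6V1B2 changed by -0.0525 after centring, and BECN1 by 0.001 after quantile normalization and 0.0241 with array weights. Over the fits without 1 array, CTSL ran from -0.1445 to 0.0077 (without vehicle replicate 1), ATP6V1B2 from -0.0569 (without vemurafenib replicate 2) to 0.0975, and BECN1 from -0.0758 to 0.056 (without vehicle replicate 3).

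Small counts moved in other lists. Without the dimmest 50% of genes, 1 of the other hydrolases (3 with all genes) and 0 of the other membrane proteins (1 with all genes) were lower, as fewer genes were tested. At 0.01, 8 of these membrane proteins were higher (13 otherwise) and 0 lower, and 0 of the other pump subunits (3 otherwise) were lower. Of the sorting genes 2 were lower (1 otherwise) after centring and with an intensity trend. Leaving out 1 array gave 0 to 1 lower membrane proteins, 1 to 3 lower pump subunits and 1 to 2 higher MiT genes (2 without vehicle replicate 2); the cause was not tested.

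With the replicate number as a block, 33 of the 55 genes rose and 4 fell, the call of ATP6V1H ended (limma adjusted p 0.0674) and 1 of the other pump subunits was lower (3 otherwise). Dishes were paired by cell stock and day, per the design text, but only 1 array is labelled with its batch letter. Deviations of same-numbered arrays correlated at 0.14, -0.18 and -0.25, and the highest correlation, 0.28, was between vemurafenib replicate 3 and vehicle replicate 2. Deviations cancel over the 3 arrays of a group, which forces some correlations to be negative. These correlations cannot show which dishes were paired. The numbers were not taken as pairs, because the labels do not say so. No other pairing was fitted, since none is given by the labels. No detection calls or scanner signals were used here, so signal over background is known only through the dim range.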
